A study of Mus musculus with 12 samples.

Results

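Nfkb1, Nfkb2, Rel, Rela and Relb encode the 5 subunits of NF-κB in the mouse, and their transcripts were read in peritoneal macrophages with and without IκBζ. A gene was included when a probe set carried its symbol and no other, and where a gene had several such probe sets the brightest on average was taken. By that rule 4 of the 5 genes were measured, Nfkb2, Rel, Rela and Relb, each by 1 probe set, out of 19938 genes in all. Nfkb1 was not analysed here. The 12 Affymetrix whole-transcript arrays form 4 groups of 3: macrophages of C57Bl/6 (wild-type) mice and of Nfkbiz-/- mice, each untreated or exposed to lipopolysaccharide (LPS), the bacterial ligand of TLR4, at 1 µg/ml for 4 h. All mice were female. The labels give no age, do not describe the Nfkbiz allele or its background further, and mention no cell sorting of the peritoneal washout beyond plating and short culture. Whether each array had its own animal is not said, so the p-values cover only array-to-array spread within a group, possibly technical.

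NF-κB is a family of dimers whose subunits share a Rel homology domain that binds DNA and pairs with another subunit. Rela, Rel and Relb carry activation domains, whereas the Nfkb1 and Nfkb2 products are long precursors whose inhibitory tails are cut away to give the short DNA-binding forms. Inhibitors of the IκB family hold the dimers in the cytoplasm until IκB kinase marks those inhibitors for destruction. LPS uses this canonical route, in which Rela and Rel dimers act. Receptors such as CD40 and the lymphotoxin-β receptor use a slower, non-canonical route through NF-κB-inducing kinase that releases Relb and the processed Nfkb2 product. Several subunit genes are themselves NF-κB targets. IκBζ, the product of Nfkbiz, is an atypical nuclear IκB protein that joins NF-κB on some promoters of secondary response genes.

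The 250 bases before the annotated start sites are shown because these genes are known to be regulated by their own products, and such a stretch was found for 3 members, Nfkb2, Rel and Rela. The sequences are from RefSeq on GRCm38.p6, on the gene's strand, with capitals for each match to a loose κB pattern (GGG, any 5 bases, then CC) on either strand (overlapping matches run together). For Nfkb2 the stretch before the first of its annotated start sites lies at chr19:46304487-46304736 (plus strand), for Rel at chr11:23770970-23771219 (minus strand) and for Rela at chr19:5637291-5637540 (plus strand).
Nfkb2: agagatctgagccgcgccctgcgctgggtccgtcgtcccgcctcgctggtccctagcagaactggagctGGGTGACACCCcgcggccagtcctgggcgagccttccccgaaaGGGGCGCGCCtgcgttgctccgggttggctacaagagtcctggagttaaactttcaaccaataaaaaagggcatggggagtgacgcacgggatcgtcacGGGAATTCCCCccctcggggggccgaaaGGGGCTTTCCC
Rel: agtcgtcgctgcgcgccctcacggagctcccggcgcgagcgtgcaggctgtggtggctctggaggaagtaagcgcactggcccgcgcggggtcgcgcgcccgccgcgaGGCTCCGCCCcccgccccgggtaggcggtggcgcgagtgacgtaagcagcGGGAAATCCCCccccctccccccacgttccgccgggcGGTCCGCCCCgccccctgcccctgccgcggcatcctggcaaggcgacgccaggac
Rela: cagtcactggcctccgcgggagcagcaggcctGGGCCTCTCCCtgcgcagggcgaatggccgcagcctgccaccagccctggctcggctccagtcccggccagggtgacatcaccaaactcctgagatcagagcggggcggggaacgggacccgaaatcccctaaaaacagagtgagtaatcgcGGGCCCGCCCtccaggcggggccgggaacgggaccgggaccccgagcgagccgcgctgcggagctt
The pattern began at 7 positions for Nfkb2, at 4 for Rel and at 3 for Rela. At least 1 match occurred in 45.8% of 32851 stretches of this length, and 3 or more positions in 10.7%. Among the 7 of Nfkb2 are GGGAATTCCC, from -39 to -30 relative to the start, and GGGGCTTTCC from -11 to -2, which differs from the textbook κB consensus at 1 position. The stretches before 2 further annotated start sites of Nfkb2, not printed, have 5 and 4 positions, and the second of them holds the textbook consensus with 0 mismatches. The Rel stretch holds GGGAAATCCC from -92 to -83. These are letter matches and show no binding.

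The level of Nfkbiz checked the genotype labels. The LPS values were 3371, 3786 and 3079 in wild type against 1568, 1335 and 1634 in Nfkbiz-/- (log2 difference -1.17, SE 0.10, limma adjusted p = 7.23e-05), and it was lower in every untreated Nfkbiz-/- array (266.9 to 285.6) than in any untreated wild-type array (406.3 to 462.6). Where this probe set lies with respect to the targeted exons was not analysed here. The sample was checked as macrophages, and all 7 general macrophage markers were bright, Lyz2, Itgam and Csf1r above the 99th percentile (99.96, 99.6 and 99.6 percent of genes at or below them), and the large peritoneal macrophage factor Gata6 stood at 92.7. The mean log2 level of the 7 markers was 11.84 to 12.50 in wild type and 12.15 to 12.67 in Nfkbiz-/-. Of the lists for 8 other cell types, the mast cell list was the most uneven, with a mean log2 level of 6.74 to 7.33 on the wild-type arrays and of 7.87, 7.24 and 8.79 (untreated replicates 1, 2 and 3) and 7.83, 6.74 and 8.59 (LPS) on the Nfkbiz-/- arrays. With LPS the general macrophage list was lower without overlap in wild type (12.46 to 12.50 untreated, 11.84 to 12.27 with LPS). The large peritoneal macrophage list was higher there (9.63 to 9.88, and 10.33 to 10.46). Of its 4 genes Icam2 alone was called in wild type (1.33), while Gata6 (0.46), Timd4 (0.83) and Cd9 (-0.06) were not. In Nfkbiz-/- Icam2 was called higher (1.37), and Gata6 (-0.74) and Cd9 (-0.31) were called lower. The dendritic cell list was lower without overlap in both genotypes. In wild type it stood at 7.22 to 7.43 untreated and 6.69 to 6.79 with LPS, in Nfkbiz-/- at 7.08 to 7.51 and 6.59 to 6.88. Clec9a was its 1 member called lower (-2.03 and -2.60), and Zbtb46 was called higher in Nfkbiz-/- (0.37). The neutrophil and mesothelial cell lists were higher without overlap in both genotypes, and the NK cell list in wild type only. These lists were dim, with median level percentiles of 32.9, 38.8 and 12.6. In wild type 1 neutrophil gene, Camp (0.23), was called higher and no mesothelial or NK cell gene was. In Nfkbiz-/- 2, 2 and 1 genes were called higher. Of all single genes 23.2% were higher without overlap in wild type and 28.3% in Nfkbiz-/-. In wild type the neutrophil list stood at 6.31 to 6.54 untreated and 6.56 to 6.61 with LPS. The mesothelial list stood there at 6.52 to 6.68 and 6.72 to 6.77. The part of these lists in the LPS responses was not tested. In these bulk samples, fewer cells of a type and less RNA per cell cannot be told apart.

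All 4 measured subunit genes rose with LPS in wild-type cells, most of all Nfkb2 and then Rel. At a limma (linear models over all genes) Benjamini-Hochberg adjusted p under 0.05, 28.1% of all genes were called in this comparison, 9.53% higher and 18.5% lower. The arrays of the 2 treatments did not overlap for any of the 4, and 23.2% of all genes were higher without overlap. Differences are in log2 with the standard error (SE) of that fit, and intensity is linear.

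Nfkb2, the precursor gene of the non-canonical route, read 1723, 1428 and 1337 on the untreated wild-type arrays and 4778, 4453 and 4788 with LPS. The groups were far apart, and the LPS arrays lay close together. The means were 1496 ± 202 and 4673 ± 190 (SD, n = 3), a log2 difference of 1.65 (SE 0.10, limma adjusted p = 4.33e-07), or 3.14-fold with a 95% interval from 2.71 to 3.64. This difference was above that of 98.9% of genes.

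Rel encodes c-Rel, a subunit known for its role in macrophages and lymphocytes. It read 2552, 2118 and 1872 untreated and 4818, 4974 and 4123 with LPS, without overlap. Replicate 3 was the lowest array of both wild-type groups. The log2 difference was 1.096 (SE 0.13, limma adjusted p = 7.09e-05), or 2.14-fold (1.75 to 2.61).

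Rela encodes the main activating subunit of the canonical route. Its untreated values of 3149, 2646 and 2546 lay below the LPS values of 3973, 4246 and 4258. The gap between the groups was narrower than for Nfkb2 or Rel, at a log2 difference of 0.59 (SE 0.09, limma adjusted p = 5.03e-04), or 1.50-fold (1.31 to 1.73).

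Relb, whose product pairs with the processed Nfkb2 product, read 759.8, 607.8 and 588.5 untreated and 951.4, 955 and 1036 with LPS. The groups did not overlap, and untreated replicate 1 stood above the other two untreated arrays. The log2 difference of 0.60 (SE 0.09, limma adjusted p = 4.41e-04) was 1.51-fold (1.32 to 1.74), close to that of Rela.

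**Figure D1:**
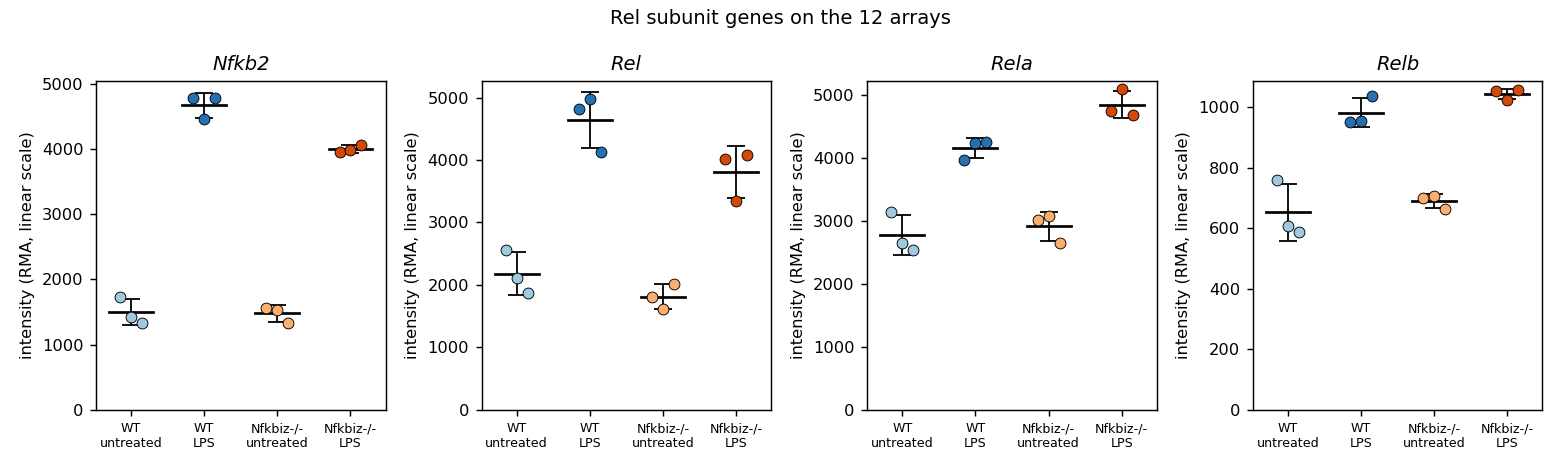
Linear RMA intensity of Nfkb2, Rel, Rela and Relb (vertical axis, from 0) on each of the 12 arrays, by genotype and treatment (horizontal axis). Points are arrays, bars are the mean of 3 arrays and whiskers the SD. The LPS arrays of each gene lie above all untreated arrays of the same genotype.

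The same 4 genes rose with LPS in Nfkbiz-/- cells, where 45.7% of all genes were called, 21.9% higher and 23.8% lower, and where 28.3% were higher without overlap of the arrays, as the 4 members were. Nfkb2 read 1567, 1530 and 1335 untreated and 3948, 3977 and 4064 with LPS. The 3 LPS arrays differed by little, and the log2 difference was 1.44 (SE 0.10, limma adjusted p = 8.33e-07), or 2.71-fold (2.34 to 3.14). Rel read 1800, 1614 and 2016 untreated and 4019, 3336 and 4085 with LPS. Replicate 2 was the lowest array of both Nfkbiz-/- groups for Rel, and the log2 difference was 1.08 (SE 0.13, limma adjusted p = 5.33e-05), or 2.11-fold (1.73 to 2.57). Rela read 3022, 3081 and 2647 untreated and 4758, 5095 and 4693 with LPS. Here the separation was wider than in the wild type, with a log2 difference of 0.74 (SE 0.09, limma adjusted p = 6.44e-05), or 1.67-fold (1.45 to 1.91). Relb read 700.5, 704.8 and 662 untreated and 1053, 1025 and 1055 with LPS. Its log2 difference was 0.60 (SE 0.09, limma adjusted p = 2.80e-04), or 1.52-fold (1.32 to 1.74), and both groups were tight.

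These calls held when each of the 12 arrays was left out in turn. Over those fits the wild-type response lay between 1.57 and 1.76 for Nfkb2, between 0.99 and 1.22 for Rel, between 0.53 and 0.68 for Rela and between 0.53 and 0.71 for Relb.

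The subunit genes did not respond equally. Within each array the log2 signal of one gene was taken from that of another, and the change of this difference with LPS, averaged over both genotypes, was tested by permuting treatment within genotype (two-sided exact permutation test, 400 arrangements, 6 pairs, Benjamini-Hochberg). The test exchanged all arrays of a genotype freely and was not run with same-numbered arrays kept as pairs. Taking the difference within an array cancels the array's scaling by a constant, and what is compared is the change in probe set signal. Nfkb2 exceeded Rela by 0.88 and Relb by 0.95 (exact permutation adjusted p = 0.0075 for both, from p = 0.005, the smallest this design can give). Nfkb2 also exceeded Rel, by 0.46 (exact permutation adjusted p = 0.0075). Rel exceeded Relb by 0.49 (exact permutation adjusted p = 0.0075) and Rela by 0.42 (exact permutation adjusted p = 0.012). Rela and Relb could not be ordered. Their responses differed by 0.06 (exact permutation adjusted p = 0.2), by -0.01 in wild type and 0.14 in Nfkbiz-/-, and after quantile normalization the sign turned, with Relb ahead (-0.13, exact permutation adjusted p = 0.01).

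**Figure D2:**
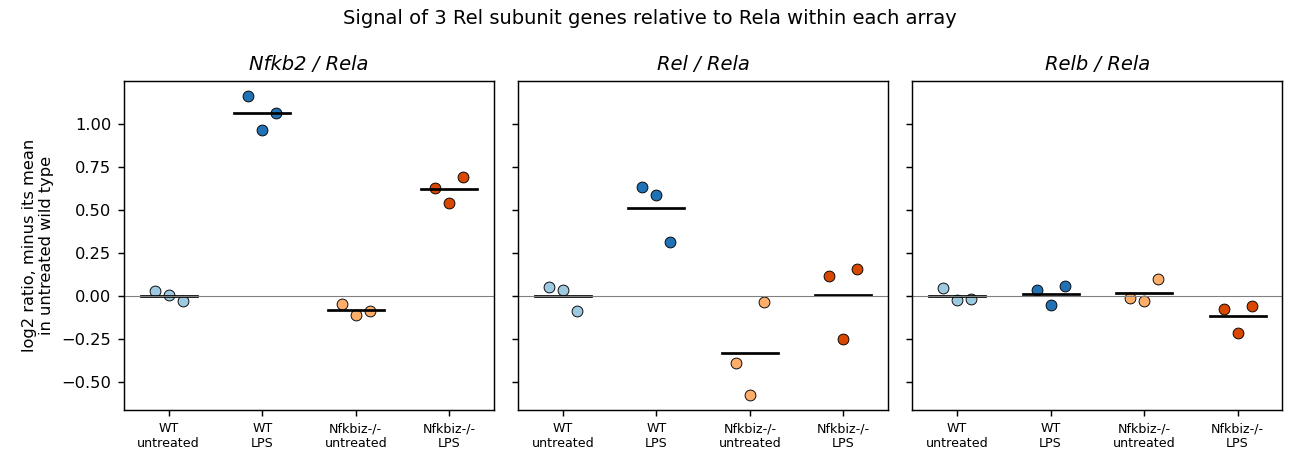
Log2 ratio of the signal of Nfkb2, Rel and Relb to that of Rela within each array, minus its mean in untreated wild-type cells (vertical axis, no unit), by group (horizontal axis). Points are arrays and bars the means of 3. With LPS, Nfkb2 gained on Rela by 1.06 in wild type and by 0.70 in Nfkbiz-/-, where its mean reached 0.62. The Relb ratio with LPS stayed between -0.22 and 0.06.

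The comparison of genotypes asks whether subunit expression depends on IκBζ. With LPS, 0 of the 4 genes were called by limma, where 8.14% of all genes were called (3.28% higher and 4.87% lower in Nfkbiz-/-), and 2 of the 4 (Nfkb2 and Rela) had an unadjusted p under 0.05, which 22.0% of all genes had. The Nfkbiz-/- arrays did not overlap the wild-type arrays for 3 of the 4 genes, a separation seen in 24.5% of all genes. Nfkb2 was 3996 ± 60.3 in Nfkbiz-/- and 4673 ± 190 in wild type (SD, n = 3). All Nfkbiz-/- arrays stood lower, and the log2 difference was -0.22 (SE 0.10, limma adjusted p = 0.197), with a 95% interval from -0.44 to -0.01. Rel was 3814 ± 415 against 4638 ± 453, again with all Nfkbiz-/- arrays lower, though the highest of them (4085) nearly reached wild-type replicate 3 (4123). Its log2 difference was -0.28 (SE 0.13, limma adjusted p = 0.234, interval -0.57 to 0.00). Rela pointed the other way, at 4849 ± 216 against 4159 ± 161, with a log2 difference of 0.22 (SE 0.09, limma adjusted p = 0.181, interval 0.02 to 0.42). With array weights, which give noisier arrays less influence, Rela passed the threshold (0.25, limma adjusted p = 0.0484). Relb overlapped between genotypes, at 1044 ± 16.9 and 981 ± 47.8 (log2 difference 0.09, SE 0.09, limma adjusted p = 0.665, interval -0.11 to 0.29).

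In untreated cells 0 of the 4 genes were called by limma between genotypes, none had an unadjusted p under 0.05, and 0.0752% of all genes were called. Every member's arrays overlapped between the genotypes. Of all genes 16.3% had arrays that did not overlap, so with 4 members this count is near that share and no result about them. The largest difference was that of Rel, 1810 ± 201 in Nfkbiz-/- against 2181 ± 345 (log2 difference -0.26, SE 0.13, limma adjusted p = 0.607, interval -0.55 to 0.02). Nfkb2 differed by -0.01 (interval -0.22 to 0.20), Rela by 0.07 (-0.13 to 0.27) and Relb by 0.09 (-0.11 to 0.29).

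The difference of the LPS responses between genotypes (the interaction) was likewise called by limma for 0 of the 4 genes, with 0 at an unadjusted p under 0.05, and for 0.747% of all genes. The response in Nfkbiz-/- minus that in wild type was -0.21 for Nfkb2 (SE 0.14, limma adjusted p = 0.557, interval -0.51 to 0.09) and 0.15 for Rela (SE 0.13, limma adjusted p = 0.679, interval -0.14 to 0.43). For Rel the interaction was -0.02 (interval -0.43 to 0.39) and for Relb 0.00 (-0.28 to 0.29). These intervals bound the genotype effect on the responses but do not show that they are alike. With replicate numbers as a block within each genotype, 296 genes were called in the interaction against 149, and still 0 members.

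**Figure D3:**
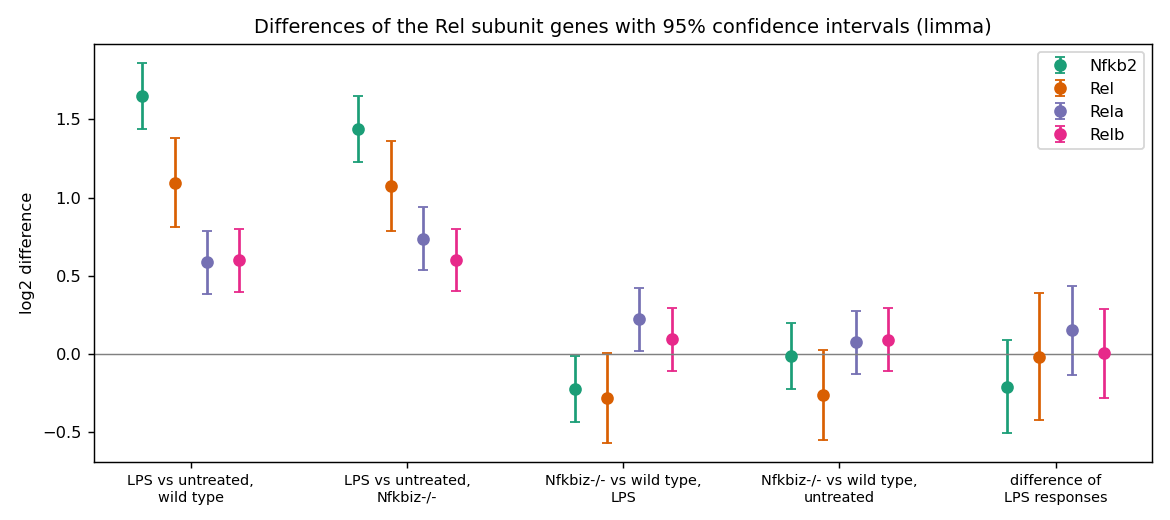
Log2 differences (vertical axis) of Nfkb2, Rel, Rela and Relb in 5 comparisons (horizontal axis). Points are limma estimates and whiskers their 95% confidence intervals. The 8 LPS responses lie above 0, from 0.59 to 1.65, while the genotype differences lie between -0.28 and 0.22.

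The balance of the subunits with LPS was compared between genotypes as ratios within each array, and no pair passed the threshold, which 3 arrays a group cannot reach. The log2 ratio of Nfkb2 to Rela, measured from its mean in untreated wild type, with LPS was 1.16, 0.97 and 1.07 in wild type and 0.63, 0.54 and 0.69 in Nfkbiz-/-. The groups were separate, and the difference of Nfkbiz-/- from wild type was -0.45 (two-sided exact permutation p = 0.1, adjusted over the 6 pairs p = 0.12). With 3 arrays against 3, p = 0.1 is the smallest value this exact test allows. The ratio of Rel to Rela was 0.63, 0.58 and 0.31 in wild type and 0.11, -0.25 and 0.16 in Nfkbiz-/-, a difference of -0.50 (exact permutation p = 0.1, adjusted p = 0.12). Much of this difference was present without LPS, as the untreated Nfkbiz-/- mean was already -0.335. With LPS the ratio of Rel to Rela rose by 0.51 in wild type and by 0.34 in Nfkbiz-/-. Of the 6 pairs, the ratio of Nfkb2 to Rel alone overlapped between genotypes (difference 0.06, exact permutation p = 0.6). The ratio of Rela to Relb barely separated. Its uncentred log2 value with LPS was 2.1532 on the lowest Nfkbiz-/- array and 2.1525 on the highest wild-type array. The pairs share genes and so are not independent. How often other gene pairs separate was not tested, but 24.5% of single genes separated between genotypes with LPS.

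Across the Nfkbiz-/- arrays the ratio of Rel to Rela was uneven. On the untreated arrays the ratio was -0.39, -0.58 and -0.04 in replicates 1, 2 and 3, beside mast cell means of 7.87, 7.24 and 8.79. With LPS it was 0.11, -0.25 and 0.16, beside 7.83, 6.74 and 8.59. The general macrophage list stood at 12.44, 12.30 and 12.67 untreated and at 12.25, 12.15 and 12.47 with LPS, and the B cell list at 7.52, 6.90 and 7.47 and at 7.26, 6.73 and 7.39. In both treatments replicate 2 was lowest in the ratio and in these 3 lists, and replicate 3 was highest in the ratio and in the mast cell and macrophage lists. Not every list ran this way. The large peritoneal macrophage list was highest in replicate 2 of untreated Nfkbiz-/- cells (10.06, 10.73 and 10.16). With LPS the neutrophil, eosinophil and mesothelial cell lists were highest in Nfkbiz-/- replicate 2 (6.728, 6.189 and 6.807). The T cell list was lowest in Nfkbiz-/- replicate 1 in both treatments (6.680 untreated and 6.765 with LPS). The dendritic cell list was lowest in replicate 2 in both (7.077 and 6.592). In LPS-treated wild-type cells the order differed, and replicate 1 had the highest ratio (0.63) with the lowest mast cell mean (6.74). In untreated wild-type cells replicate 3 was lowest in both the ratio (-0.09) and the mast cell mean (6.98). The part of these markers in the Rel values was not tested.

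The genes most like each subunit gene were ranked by Pearson's r over the 12 arrays, among 9969 genes above the median level. These arrays share the LPS treatment, so high values are common, and r is given as a description. Nfkb2 was closest to Plagl2 (r = 0.997), Ciao2b (0.993) and the IκB gene Nfkbib (0.991). Rel was closest to Fam13b (0.987), the TNF-receptor adaptor gene Traf1 (0.983) and Phlda1 (0.983). Rela was closest to Foxp4 (0.989), the phosphatase gene Dusp4 (0.987) and the IκB gene Nfkbie (0.985). Relb was closest to Rela itself (0.979), followed by Abi1 (0.977) and Acbd3 (0.977). Among the subunits r ran from 0.835, for Rel and Rela, to 0.979, for Rela and Relb.

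Most inhibitor genes of the IκB family rose with LPS beside the subunit genes. Of the 6 IκB family genes 5 rose with LPS in wild type and 0 fell (median log2 difference 1.18, against 0.04 for all genes), and 5 rose in Nfkbiz-/- (median 1.65, against 0.07). Of all genes, 9.53% were called higher in wild type and 21.9% in Nfkbiz-/-. Nfkbia, the classical feedback inhibitor IκBα, went from 3308, 2564 and 2836 to 8347, 8821 and 8683 in wild type (1.58 with an SE of 0.12, limma adjusted p = 2.34e-06) and rose by 1.69 in Nfkbiz-/-. Nfkbib rose by 1.26 and 1.30. Bcl3, a nuclear IκB protein that binds the short forms, was not called in either genotype (0.40 and 0.04). The Nfkbiz probe set itself rose most in the family, by 2.97 in wild type and still by 2.45 in Nfkbiz-/- (limma adjusted p = 2.41e-08). With LPS, 2 of the 6 were higher in Nfkbiz-/- and 1, the targeted gene Nfkbiz, was lower, beside 3.28% and 4.87% of all genes. Nfkbie, which encodes IκBε, read 4012, 3888 and 4215 in Nfkbiz-/- and 2670, 2725 and 2786 in wild type (0.57 with an SE of 0.11, limma adjusted p = 0.00905). Nfkbid, which encodes the nuclear IκBNS, read 1962, 1724 and 2443 against 1061, 1199 and 1097 (0.86, SE 0.16, limma adjusted p = 0.00848). Neither overlapped between genotypes, and both calls held without any 1 array. Nfkbia (-0.21), Nfkbib (-0.03) and Bcl3 (-0.56) were not called. Untreated, Nfkbiz was the 1 gene of the list called between genotypes (-0.65, limma adjusted p = 0.0401), a call that failed in 8 of 12 fits with a single array removed. The interactions of Nfkbie (0.56, limma adjusted p = 0.134) and Nfkbid (0.71, limma adjusted p = 0.19) were not called.

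The counts of the next lists stand beside 28.1% of all genes called with LPS in wild type, 45.7% in Nfkbiz-/- and 8.14% between genotypes with LPS. Some LPS calls in these counts were lost in at least 1 fit with a single array removed. In wild type these were the calls of Cyld, Hdac1 and Cd83. In Nfkbiz-/- they were those of Ikbkb, Tnip2, Tnip3, Traf2, Cd14, Ticam1, Rps3 and Cd83. Of 9 kinase and adaptor genes that release or modify the inhibitors, 5 rose and 2 fell with LPS in wild type (median 0.43), and 4 rose and 2 fell in Nfkbiz-/- (median 0.29). Ikbke (1.14), Ikbkb, a catalytic subunit of IκB kinase (0.75), and Tbk1 (0.73) rose in wild type. Map3k14, which encodes the NF-κB-inducing kinase of the non-canonical route, fell, from 374.2, 260.4 and 286.3 to 162.5, 136.5 and 188.5 in wild type (-0.91, SE 0.15, limma adjusted p = 6.60e-04) and by 0.91 in Nfkbiz-/- (-0.91). Nfkb2, whose product that kinase sends to processing, rose on the same arrays. With LPS, 0 of the 9 were higher and 3 were lower in Nfkbiz-/-: Map3k14 (-0.54), Ikbkb (-0.44) and Tab2 (-0.23). Only the Ikbkb call held in most fits that left out 1 array, being lost without wild-type LPS replicate 1 (-0.42, limma adjusted p = 0.0555), while Map3k14 and Tab2 failed the threshold in 8 and 10 of the 12, both for example without wild-type LPS replicate 3.

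Receptors that feed the non-canonical route split. Of 5 genes, 2 rose and 1 fell in wild type, and 2 rose and 2 fell in Nfkbiz-/-. Cd40 rose by 2.77 and 3.34, Tnfrsf1b, the TNF receptor 2 gene, by 1.28 and 1.00, and Ltbr, the lymphotoxin-β receptor gene, fell (-0.38 and -0.58). Between genotypes with LPS, Cd40 was higher (0.63) and Tnfrsf11a lower (-0.47) in Nfkbiz-/-, calls that failed in 7 and 4 of the 12 fits with a single array removed, Cd40 for example without wild-type LPS replicate 3 (0.52, limma adjusted p = 0.162).

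Of 12 A20, TRAF and IAP feedback genes 7 rose and 1 fell in wild type (median 0.49), and 9 rose and 2 fell in Nfkbiz-/- (median 0.57). Tnfaip3, which encodes the deubiquitinase A20, rose by 2.80 and 2.59, Traf1 by 2.03 and 2.12, the A20 partner gene Tnip1 by 1.92 and 1.94, and Traf5 by 0.95 and 1.57. With LPS, 2 were higher and 1 was lower in Nfkbiz-/-: Birc2 (0.75), Traf5 (0.82) and Tnip3 (-1.502). The second probe set of Birc2 was not called, and the Traf5 call was lost without wild-type LPS replicate 3 (0.75, limma adjusted p = 0.0533).

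In TLR4 signalling, 4 of 11 genes rose and 1 fell in wild type (median 0.05), and 3 rose and 4 fell in Nfkbiz-/-. The kinase genes Irak2 (0.93) and Irak3 (0.76) and the adaptor gene Myd88 (0.56) rose in wild type, and Irak1 fell (-0.74). With LPS, Irak2 was higher in Nfkbiz-/- (0.49) and Irak3 (-0.99) and Ly96, the TLR4 co-receptor gene (-0.55), were lower. Irak3, a brake on this route, was the 1 gene of the list with a called interaction (-0.71, limma adjusted p = 0.0403), a call lost with the replicate block (0.0582) and in 10 of the 12 fits with a single array removed, for example without wild-type LPS replicate 3 (-0.65). Of 12 cofactors and modifiers of Rel proteins, 2 rose and 2 fell in wild type, among them the methyltransferase gene Setd7, which fell most (-2.03), Ehmt1 (-0.70), and Rnf31 (0.76), a component of the linear ubiquitin ligase. In Nfkbiz-/- 5 rose and 3 fell. The 4 of 12 called in wild type are near the share of all genes (28.1%), so this count is no result about the list. With LPS, 3 of the 12 were higher in Nfkbiz-/- and 1 was lower: the deacetylase gene Sirt1 (0.89), Rnf31 (0.68), Setd7 (0.39) and, lower, Ehmt1 (-0.60). With single arrays removed, Setd7 dropped below the threshold in 10 of 12 fits and Rnf31 in 3, namely without wild-type LPS replicate 3 (0.51), wild-type LPS replicate 1 (0.67) or Nfkbiz-/- LPS replicate 3 (0.63).

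**Figure D4:**
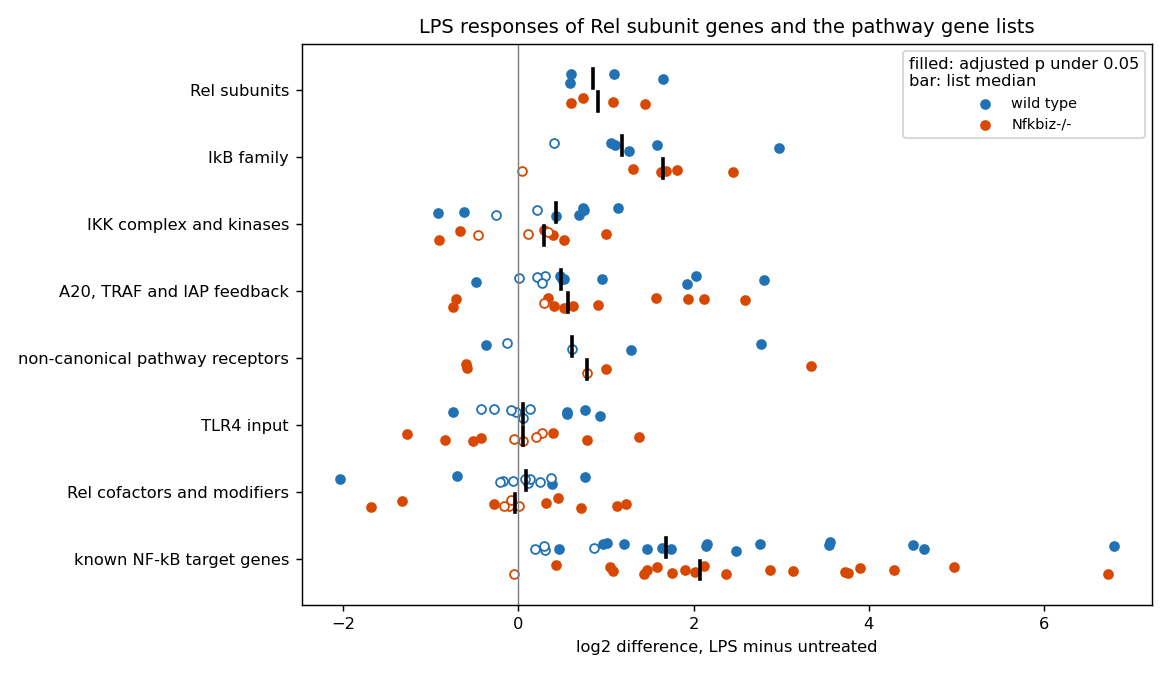
Log2 difference between LPS and untreated cells (horizontal axis) for the Rel subunit genes and the genes of 7 pathway lists (vertical axis), in wild-type (blue) and Nfkbiz-/- cells (orange). Points are genes, filled where the limma adjusted p was under 0.05, and bars are list medians. The 4 subunit genes lie between 0.59 and 1.65, below the wild-type median of 1.69 of the 20 target genes.

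Downstream, 16 of 20 known NF-κB target genes rose in wild type and 0 fell (median 1.69), and 19 rose in Nfkbiz-/- (median 2.07). Both counts include Cd83, whose calls did not hold in every fit with a single array removed. Its wild-type call was lost for example without wild-type untreated replicate 2 (0.82, limma adjusted p = 0.167). Il6 (6.80 in wild type), Ccl4 (4.63), Cxcl1 (4.50) and Nos2 (3.55) rose most. With LPS, 3 of the 20 were higher and 2 lower in Nfkbiz-/-, and 15 were not called (median -0.11, against -0.01 for all genes). Vcam1 (3.10), Irf1 (1.72) and Icam1 (0.85) were higher, and Il12b (-1.23) and Gadd45b (-0.73) lower. The interaction was called for 4 of the 20, Il12b (-1.29), Vcam1 (2.82), Ccl3 (1.23) and Cxcl2 (0.63), for 0 of the 4 subunit genes and for 0.747% of all genes. With a single array removed, the Vcam1 interaction failed the threshold in 9 of 12 fits, for example without wild-type LPS replicate 3 (2.58), and that of Il12b in 2, without Nfkbiz-/- untreated replicate 1 (-1.26) or wild-type untreated replicate 2 (-1.27). Between untreated genotypes 2 of the 20 were called, Ccl3 (-1.45) and Cxcl2 (-0.68), both lower in Nfkbiz-/-, beside 0.0752% of all genes. With LPS neither was higher in Nfkbiz-/-. The mean intensity was 12480 against 14540 in wild type for Ccl3 and 10570 against 10960 for Cxcl2.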

How the data were processed

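Transcripts were measured on 12 one-colour Affymetrix arrays, 3 per group, grouped by sample title. The deposited values are linear intensity values, 1 per probe set. The submitters' processing notes name RMA and Affymetrix Expression Console 1.1, without settings or a genome build. Deposited intensity ran from 6.96 to 22642, and array medians from 110.4 to 118.7. Values were log2-transformed with no pseudocount. GEO's annotation of the platform gave 21789 of 35556 probe sets 1 symbol, 1621 several and 12146 none, and 21698 matched a RefSeq gene table (GRCm38). Keeping the brightest probe set per gene left 19938 genes.

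Differences were tested with limma 3.58.1 in R 4.3.3 (4 group means, 8 residual degrees of freedom), adjusted by Benjamini-Hochberg over all 19938 genes. Pairs of subunit genes were compared by exact permutation in Python 3.11.15. Nfkb1 was not analysed, so 6 pairs were tested in place of the 10 planned. On simulated arrays with 19938 genes, 89% of 2-fold changes between genotypes with LPS and 71% in the interaction were recovered. These changes were placed only in genes above the median level, with noise drawn independently for each gene. The members differed less between genotypes with LPS, from 0.82-fold to 1.17-fold. The simulation therefore does not say how often changes of that size would be called. The number of arrays limits the precision.

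Same-numbered arrays deviated together in Nfkbiz-/- cells (r from 0.32 to 0.57 between untreated and LPS arrays) but not throughout in wild type (-0.07 to 0.36). A replicate block within each genotype was therefore added. No batch is given in the labels. The members and gene lists were chosen with earlier results of these data known. Genes named were the 4 members, Nfkbiz, all IκB genes, up to 4 called genes per list with the largest difference, and the 3 genes most like each member, passing over predicted genes, small RNAs and pseudogenes. Ccl3 and Cxcl2 in the interaction and Gadd45b were named after their values were seen. The alternatives comprised array scalings, a dim-gene filter, a trend with robust estimation, array weights, replicate blocks, other probe sets, fits on 6 arrays, stricter thresholds and leaving out each array.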

Additional observations from a re-analysis of the deposited data

How the results depend on the processing

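The 8 LPS responses of the subunit genes passed the threshold under all 25 alternatives each. Some of these could change little. Each member has 1 probe set, so the settings with other probe sets kept its values. Leaving out an array of the other genotype kept the estimate and changed only its error. Rela in wild type met the 1.5-fold setting narrowly, at 1.5016-fold. Of 488 recomputed member differences, 487 kept their side of the threshold, and 1, Rela between genotypes with LPS, passed with array weights, so that the count of called members there was 1 in place of 0. The replicate block changed no call of a member. The order of Rela and Relb turned after quantile normalization (-0.13). Centring on the 75th percentile moved the median LPS response of all genes from 0.04 to 0.23 in wild type and from 0.07 to 0.35 in Nfkbiz-/-, and the share of higher calls from 34.0% to 77.5% and from 47.9% to 80.2% (with LPS between genotypes from 40.2% to 56.3%, in the interaction from 40.3% to 59.1%). In wild type that share was 47.8% after quantile normalization and 47.9% after median centring.

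The background counts moved more. In the wild-type LPS response 5594 genes were called, against 11158 with 75th percentile centring, 10113 with array weights, 3673 at an adjusted p under 0.01 and 2838 at 1.5-fold or more. In Nfkbiz-/- the counts were 9105, 14970 with 75th percentile centring, 5936 at 0.01 and 3988 at 1.5-fold. Between genotypes with LPS they were 1623, 3296 with array weights, 492 on the 6 arrays compared, 552 at 0.01, 811 at 1.5-fold, and 712 to 2158 with 1 array left out (712 without wild-type LPS replicate 3, 754 without replicate 1 and 1076 without Nfkbiz-/- LPS replicate 3). Untreated, they were 15, 23 with quantile normalization, 30 with 75th percentile centring, 23 with brighter genes only, 46 with array weights, 30 with the replicate block, 2 on 6 arrays, 7 at 0.01 and 6 (without wild-type untreated replicate 3) to 23 (without Nfkbiz-/- LPS replicate 2) with 1 array left out, and 8 or 9 without wild-type LPS replicate 1, Nfkbiz-/- LPS replicate 1 or Nfkbiz-/- untreated replicate 1. In the interaction they were 149, 667 with array weights, 39 at 0.01, 296 with the block within genotypes and 55 (without Nfkbiz-/- untreated replicate 1) to 365 (without wild-type LPS replicate 2) with 1 array left out, under 100 without any 1 untreated wild-type array, wild-type LPS replicate 1 or 3, or Nfkbiz-/- untreated replicate 3. The cause was not tested.

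By Spearman's rank, Plagl2 and Ciao2b stayed among the 3 genes most like Nfkb2 and Foxp4 among those most like Rela. With the κB consensus at up to 2 mismatches, 21.9% of all stretches held a match, and the Nfkb2, Rel and Rela stretches all did.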
